A study of Homo sapiens with 6 samples.

Results

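G protein-coupled receptors of 2 cultures labelled as the breast cancer line T47D are described here. They were taken by symbol: 101 of the 20503 genes in the count table carry a name of the adhesion, GPR-numbered, GPRC5, adrenergic, muscarinic, histamine, dopamine, serotonin, adenosine, purine nucleotide, lysophosphatidic acid, sphingosine 1-phosphate, prostaglandin E2, protease-activated, bradykinin, oxytocin, neuropeptide Y or neuropeptide FF receptor families, or of the oestrogen receptor GPER1. The name rule used no measured value, but it was chosen with earlier results of these data known. It also took HTR3A, a serotonin-gated ion channel that is no G protein-coupled receptor, and 7 multi-pass proteins outside the standard receptor classes (GPR107, GPR108, GPR137, GPR143, GPR155, GPR157 and GPR180). The tested culture is T47D-TR, a tamoxifen-resistant subline kept in medium with 1 µM 4-hydroxytamoxifen, and the culture it is set against is its parent T47D, which is labelled ER-positive and was not given the drug. Both grew in DMEM with 10% fetal bovine serum, and each was sequenced in 3 libraries of poly(A)-selected RNA. The subline and the drug cannot be told apart, because no sample separates them. The labels do not say whether the 3 libraries per group are separate cultures. All p-values below therefore rest on the spread among these libraries, and that spread may be technical.

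G protein-coupled receptors are membrane proteins that pass an outside signal to heterotrimeric G proteins at the inner face of the membrane. Receptors coupled to Gs raise cyclic AMP, those coupled to Gi lower it, and those coupled to Gq release calcium through phospholipase C. Receptor kinases and arrestins end the signal, and RGS proteins switch the G protein off. Breast epithelial cells carry receptors for proteases, nucleotides, amines and lipid mediators, and adhesion receptors that bind neighbouring cells and matrix.

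The libraries held 17199315 to 19867230 counts in T47D-TR and 18315735 to 19305594 in T47D. Levels are CPM, the counts of a gene scaled to a common library size. Pearson's r of log2 CPM across genes was 0.990 to 0.994 within a group and 0.942 to 0.948 between groups, where genes are not independent replicates. T47D-TR replicate 3 stood apart from the other libraries of its group, and it was the lowest T47D-TR library for 32 of 71 tested receptors (45.1%), against 38.0% of all tested genes. The label was checked against 12 of 15 luminal markers listed. ESR1, the oestrogen receptor gene, averaged 0.162 CPM in T47D-TR and 0.0896 CPM in T47D, with 14 counts in all, although the line is labelled ER-positive. GATA3, a luminal transcription factor, was at 0.625 CPM in T47D-TR and 1.23 CPM in T47D, and the luminal keratin KRT8 was at 1580 CPM in T47D-TR and 1338 CPM in T47D. VIM, a mesenchymal filament, was at 1297 CPM in T47D-TR and 770 CPM in T47D. Of the 10 luminal markers tested, 7 were higher in T47D-TR and 3 lower, with XBP1 at 156 CPM in T47D-TR and 61.0 CPM in T47D and EPCAM at 14.7 CPM in T47D-TR and 38.6 CPM in T47D. CDH1, also on the luminal list, was at 5.50 CPM in T47D-TR and 2.12 CPM in T47D. VIM is from a list of mesenchymal or basal markers, of which 9 were tested. Of these, 6 were higher in T47D-TR, 1 was lower and 2 were not called. The lower one, AXL, was at 117 CPM in T47D-TR and 195 CPM in T47D. Both cultures thus had abundant KRT8 and VIM and almost no ESR1 mRNA. The low ESR1 mRNA is at odds with the ER-positive label, and the identity of the line was not tested. Mitochondrial genes took 10.0% to 10.4% of counts in T47D-TR and 6.25% to 6.41% in T47D. Summed over 3 endothelial markers analysed, the level was 23.6 to 31.3 CPM in T47D-TR and 0.6999 to 1.02 CPM in T47D, nearly all of it PECAM1. Summed over 6 immune markers it was 57.4 to 75.7 CPM in T47D-TR and 24.2 to 27.8 CPM in T47D, mostly CD68, while the pan-leukocyte marker PTPRC had 2 counts in T47D-TR and 6 in T47D. The 8 fibroblast markers summed to 20.4 to 26.9 CPM in T47D-TR and 36.6 to 40.0 CPM in T47D, where DCN, COL1A2 and PDGFRA were at 0. Most of that difference was LUM, at 0.253 CPM in T47D-TR and 13.9 CPM in T47D. T47D-TR replicate 3 held 22 of 22 counts of COL1A2, 37 of 41 of COL3A1 and 19 of 23 of DCN in its group. The part of these markers and of the mitochondrial share in the receptor results was not tested, and in bulk RNA fewer cells of a type and less RNA per cell cannot be told apart.

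As a group, receptors were called more often as higher than as lower in T47D-TR. Of the 101 genes, 71 passed the filter on low counts and 30 did not. By edgeR's quasi-likelihood test at an adjusted p under 0.05, 36 of the 71 were higher in T47D-TR (50.7%) and 18 were lower (25.4%), and 17 were not called. Without T47D-TR replicate 3, 37 were higher and 19 lower. Among all 15961 tested genes 63.2% were called, 32.5% as higher and 30.7% as lower. At any size of change, the share of receptors called higher was above that background and the share called lower was below it. At 2-fold or more, 19 of the 71 receptors were higher, against 1615 of 15961 tested genes (10.1%). At the same threshold 7 of the 71 were lower, against 620 of 15961 (3.88%). At this threshold both shares, higher and lower, were above the background. The median log2 fold change was 0.44 for the 71 receptors and 0.00 for all tested genes. The tested receptors had a lower median level, at 5.84 CPM in T47D-TR and 3.66 CPM in T47D. All tested genes had medians of 19.9 and 18.3 CPM. Some receptors passed the filter through their T47D-TR libraries, such as ADGRF4 and S1PR5, and some through T47D, such as NPFFR2 and ADGRE1. The part of level and filter in these shares was not tested. The libraries of T47D-TR and T47D did not overlap for 53 of the 71, against 68.3% of all tested genes. In the authors' deposited table, 52 of the 101 genes had a false discovery rate under 0.05, 37 of them higher and 15 lower, against 44.4% of all 20503 genes, and 48 of these were called here in the same direction. Summed over the 101 genes, the level was 1858, 1910 and 1674 CPM in T47D-TR and 1308, 1278 and 1282 CPM in T47D.

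**Figure D1:**
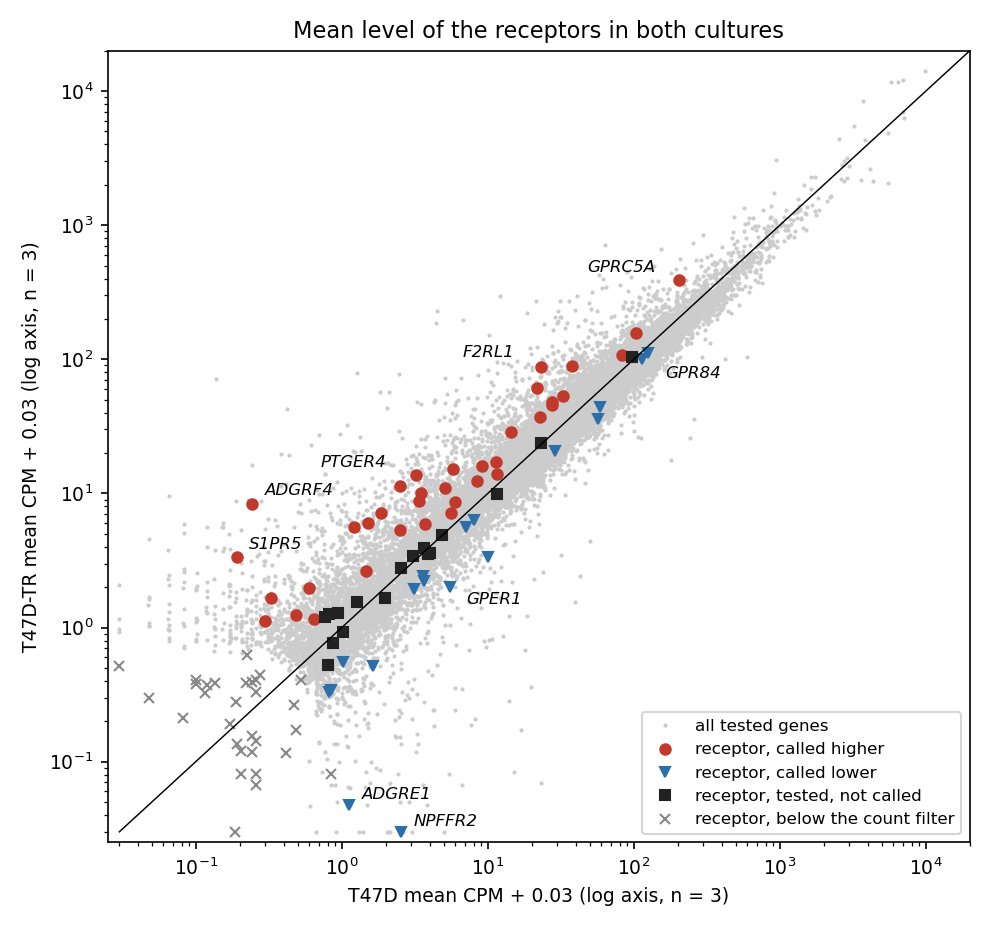
Mean CPM, plus a pseudocount of 0.03, in T47D-TR (vertical log axis) against T47D (horizontal log axis), 3 libraries per group, for all tested genes (grey), for the tested receptors by edgeR call, and for those below the filter (crosses). The 36 receptors called higher lie above the diagonal of equal levels and the 18 called lower lie below it, with ADGRF4, S1PR5, ADGRE1 and NPFFR2 far from it.

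Promoter sequences are shown for 4 receptors called at least 2-fold higher, picked by hand. They are not the 4 largest rises, as S1PR5, GPR3 and ADRA1B rose more than HRH1. HRH1 and ADGRF4 hold the motif that AP-1 transcription factors bind, and F2RL1 and PTGER4 do not. Each is the 250 bases before the annotated start, 5′ to 3′ on the gene's strand, from RefSeq on GRCh38.p14; capitals mark TGACTCA or its reverse complement TGAGTCA. The ADGRF4 window is chr6:47698330-47698579, plus strand, and its motif begins 123 bases before the start. The HRH1 window is chr3:11136988-11137237, plus strand, before the first of 3 annotated starts, with the motif 71 bases before it. The F2RL1 window is chr5:76818780-76819029 and the PTGER4 window chr5:40679665-40679914, both on the plus strand. RefSeq and GENCODE place the starts differently: the GENCODE genes begin before the end of each window, and the ADGRF4 and PTGER4 windows lie wholly inside the GENCODE genes.
ADGRF4: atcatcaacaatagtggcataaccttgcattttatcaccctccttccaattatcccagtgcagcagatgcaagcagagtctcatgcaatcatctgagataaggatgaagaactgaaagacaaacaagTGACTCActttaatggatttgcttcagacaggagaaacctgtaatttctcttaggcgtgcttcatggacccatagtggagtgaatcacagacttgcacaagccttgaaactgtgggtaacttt
HRH1: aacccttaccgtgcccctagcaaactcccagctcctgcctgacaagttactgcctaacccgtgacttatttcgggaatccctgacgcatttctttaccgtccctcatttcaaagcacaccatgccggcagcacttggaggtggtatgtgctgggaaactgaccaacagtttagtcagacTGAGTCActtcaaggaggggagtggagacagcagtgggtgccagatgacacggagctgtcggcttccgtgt
F2RL1: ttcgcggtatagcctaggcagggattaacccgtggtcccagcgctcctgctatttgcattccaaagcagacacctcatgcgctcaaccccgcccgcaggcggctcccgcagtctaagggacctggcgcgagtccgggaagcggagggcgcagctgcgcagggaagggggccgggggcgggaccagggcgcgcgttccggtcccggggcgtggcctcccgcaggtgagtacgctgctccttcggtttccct
PTGER4: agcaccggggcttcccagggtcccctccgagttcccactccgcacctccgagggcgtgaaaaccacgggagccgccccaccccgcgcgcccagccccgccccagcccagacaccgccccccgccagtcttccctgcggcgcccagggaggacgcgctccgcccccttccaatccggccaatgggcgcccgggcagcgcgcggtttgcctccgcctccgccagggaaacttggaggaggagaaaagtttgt
Promoters were found for 69 of the 101 genes. The AP-1 motif, searched on both strands, was in 7 of these 69 (10.1%) and in 5.19% of all 27305 genes with a RefSeq promoter. A gene was counted if the window before any of its starts held the motif. Among the 17 matched receptors called at least 2-fold higher it was in 3, ADGRF4, HRH1 and ADGRG1. Of all matched receptors called higher it was in 4 of 26, of those called lower in 0 of 13, and of those tested and not called in 1 of 12. F2RL2 and ADGRL4, below the filter, also held it. These sets are too small to tell such shares apart, and the difference was not tested. The cyclic AMP response element TGACGTCA was in the promoters of S1PR2 and GPR3, against 2.03% of all genes. The GC box GGGCGG was in 50 of 69 (72.5%), against 46.2% of all genes. Its share was alike whatever the call, at 80.8% of matched receptors called higher, 84.6% of those called lower and 83.3% of those not called. F2RL1 and PTGER4 hold this last motif, on one strand or the other. These matches describe the letters of the window, and binding was not measured.

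Among lipid mediator receptors of the name rule, those for prostaglandin E2, lysophosphatidic acid and sphingosine 1-phosphate each had a member that was higher in T47D-TR. Prostaglandin receptors outside the rule did not rise. PTGDR2 was lower, at 3.23 CPM in T47D-TR and 8.69 CPM in T47D (log2 -1.42, edgeR adjusted p = 5.45e-07). PTGIR was lower too, at 42.0 CPM in T47D-TR and 49.6 CPM in T47D (log2 -0.24, edgeR adjusted p = 0.00498). PTGFR had 1 count in each group. PTGER4 (chr5:40679498-40693735, plus strand, GRCh38), the EP4 receptor for prostaglandin E2, which couples to Gs, had 14.98, 16.4 and 9.47 CPM in T47D-TR against 3.50, 3.07 and 3.001 CPM in T47D. The lowest T47D-TR library was above every T47D library. Its fold change was 4.29 (log2 2.10 ± 0.25 SE, n = 3 each, edgeR adjusted p = 2.96e-06). LPAR5 (chr12:6618835-6636447, minus strand), a receptor for lysophosphatidic acid, had 6.38, 6.93 and 7.93 CPM in T47D-TR against 1.56, 2.10 and 1.82 CPM in T47D, and its log2 fold change was 1.95 ± 0.15 (edgeR adjusted p = 1.22e-07). LPAR2, the other tested receptor for this lipid, was higher by a smaller margin, with a log2 fold change of 0.56 ± 0.09.

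S1PR5 (chr19:10512742-10517931, minus strand), a sphingosine 1-phosphate receptor best known from natural killer cells and oligodendrocytes, was close to absent in the parent line. It had 85, 50 and 50 counts in T47D-TR against 5, 1 and 3 counts in T47D, or 4.41, 2.55 and 2.96 CPM against 0.269, 0.0511 and 0.161 CPM. The groups were far apart at 20.1-fold (log2 4.33 ± 0.43, edgeR adjusted p = 2.78e-07). NKG7, a natural killer cell gene, had 3 counts in T47D-TR and 10 in T47D. The related receptors S1PR2 and S1PR3 were not called, at 3.38 ± 0.209 and 0.898 ± 0.0430 CPM in T47D-TR and 3.04 ± 0.552 and 0.987 ± 0.0578 CPM in T47D.

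Both tested protease-activated receptors were higher. F2RL1 (chr5:76818933-76835315, plus strand), which encodes PAR2, a receptor switched on when trypsin-like proteases cut its end, had 93.2, 96.9 and 73.2 CPM in T47D-TR against 24.3, 21.0 and 24.4 CPM in T47D. All T47D-TR libraries were above 3 times the mean of T47D, at a fold change of 3.78 (log2 1.92 ± 0.14, edgeR adjusted p = 2.09e-07). Per kilobase of exon, F2RL1 was at 29.7 CPM in T47D-TR, the third highest level among the receptors, and at 7.86 CPM in T47D, the tenth. F2R, the thrombin receptor PAR1, which lies on the same chromosome at chr5:76716043-76735781, had 47.6, 50.3 and 38.1 CPM in T47D-TR against 29.7, 25.6 and 26.9 CPM in T47D (log2 0.73 ± 0.14, edgeR adjusted p = 2.55e-05). F2RL2 and F2RL3 had 20 and 14 counts in T47D-TR and 12 and 9 in T47D, below the filter.

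Of 5 tested receptors for purines and nucleotides, 3 were higher and 1 was lower. ADORA1, an adenosine receptor coupled to Gi, had 8.14, 9.48 and 8.76 CPM in T47D-TR against 3.55, 3.58 and 2.89 CPM in T47D, with no overlap (log2 1.39 ± 0.12, edgeR adjusted p = 5.34e-07). P2RY2, a Gq-coupled receptor for ATP and UTP, had 11.9, 10.4 and 10.4 CPM in T47D-TR against 4.52, 5.06 and 5.57 CPM in T47D (log2 1.11 ± 0.11, edgeR adjusted p = 1.51e-06). ADORA2B, a Gs-coupled adenosine receptor of low affinity, was the most abundant of the adenosine receptors per kilobase of exon, at 14.5 CPM in T47D-TR and 8.91 CPM in T47D (log2 0.70 ± 0.04). P2RY11 was called lower (log2 -0.35 ± 0.11, edgeR adjusted p = 0.0237), but 50% of its exon bases lie in the readthrough gene PPAN-P2RY11 on the same strand, and the 2 cannot be told apart where the counting is not stated. The adjusted p was 0.0701 with DESeq2. P2RY6 was not called, at 1.17 ± 0.542 CPM in T47D-TR and 0.738 ± 0.221 CPM in T47D.

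Amine receptors rose in 6 of 8 tested members (75.0%, against 32.5% of all tested genes). ADRA1B (chr5:159865080-159972544, plus strand), the alpha-1B adrenergic receptor, which couples to Gq, had 10.9, 11.2 and 11.8 CPM in T47D-TR against 2.64, 1.74 and 3.05 CPM in T47D. The T47D-TR libraries were tightly grouped and 4.56-fold higher (log2 2.19 ± 0.24, edgeR adjusted p = 2.02e-08). HRH1, the histamine H1 receptor, which also couples to Gq, had 63.8, 72.5 and 47.8 CPM in T47D-TR against 21.1, 21.7 and 22.1 CPM in T47D. T47D-TR replicate 3 was the lowest of its group, and the groups did not overlap (log2 1.51 ± 0.18, edgeR adjusted p = 5.88e-05).

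CHRM4 and HTR7 had few counts. CHRM4, a muscarinic acetylcholine receptor coupled to Gi, had 27, 18 and 16 counts in T47D-TR against 5, 2 and 8 counts in T47D (log2 2.02 ± 0.43, edgeR adjusted p = 0.000903). HTR7, a serotonin receptor coupled to Gs, had 26, 22 and 20 counts in T47D-TR against 11, 7 and 8 counts in T47D (log2 1.40 ± 0.19, edgeR adjusted p = 0.00166). Neither gene's groups overlapped. HTR1D, a serotonin receptor coupled to Gi, was at 8.67 ± 2.57 CPM in T47D-TR and 5.91 ± 0.971 CPM in T47D with overlapping libraries (edgeR adjusted p = 0.0366), and limma-voom did not call it (adjusted p = 0.0644). ADRA2C, a Gi-coupled adrenergic receptor, fell to 2.20 ± 0.438 CPM in T47D-TR, against 3.60 ± 0.305 CPM in T47D (log2 -0.70 ± 0.17, edgeR adjusted p = 0.00538). ADRB1 was not called; its T47D-TR libraries held 11, 17 and 1 counts and its T47D libraries 14, 17 and 13.

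**Figure D2:**
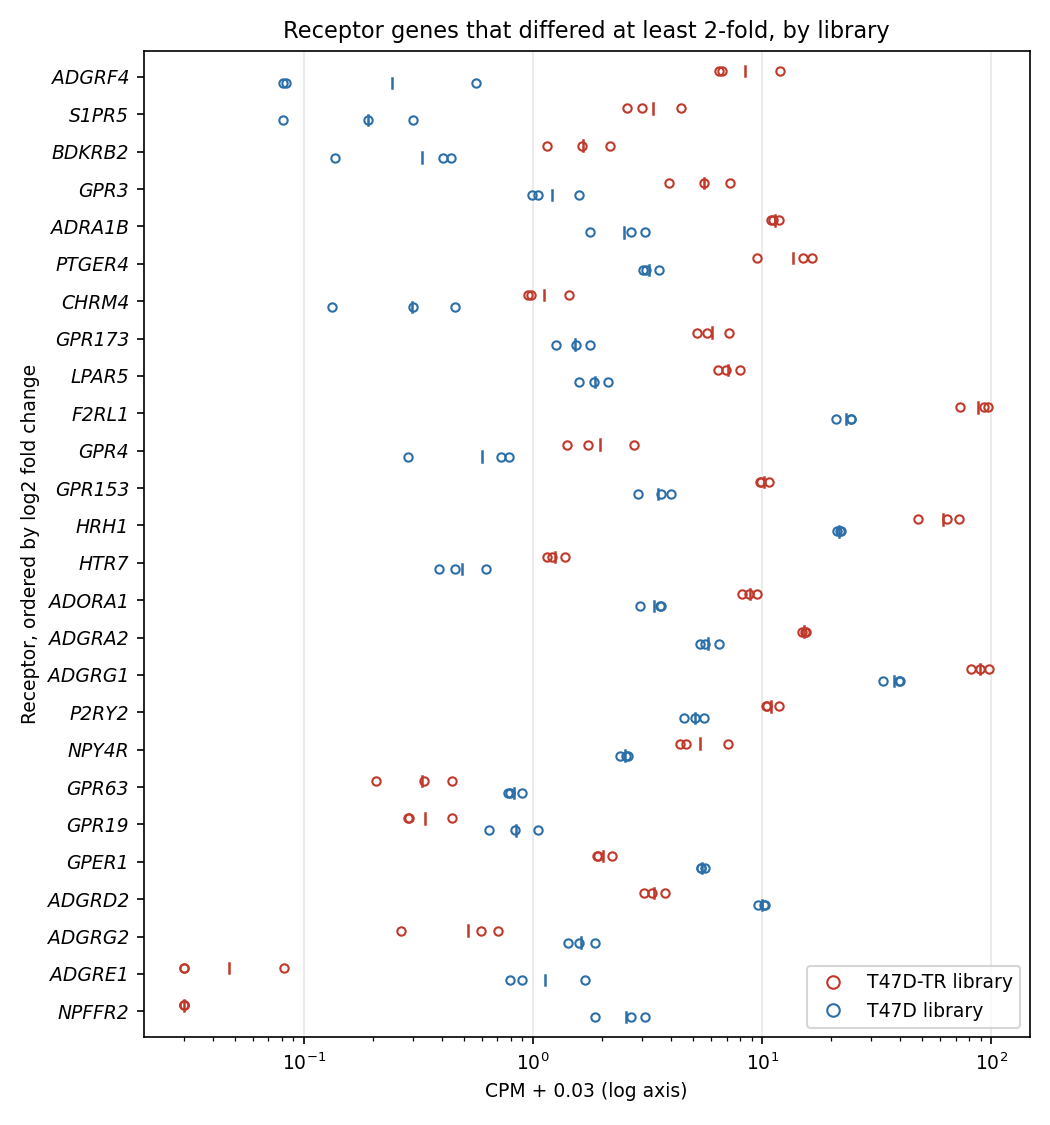
CPM per library (log axis) of the receptors called at least 2-fold higher or lower with groups that do not overlap, T47D-TR points and T47D points side by side for each gene. A pseudocount of 0.03 is added to each CPM, and ticks mark group means. The groups do not overlap for any of the genes shown, and NPFFR2 is at 0 in the 3 T47D-TR libraries.

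Peptide receptors moved in both directions. BDKRB2, the bradykinin B2 receptor, had 31, 22 and 36 counts in T47D-TR against 7, 8 and 2 counts in T47D (log2 2.40 ± 0.48, edgeR adjusted p = 0.000134). NPY4R, a receptor for pancreatic polypeptide, had 4.36, 4.64 and 7.05 CPM in T47D-TR against 2.37, 2.51 and 2.57 CPM in T47D (log2 1.09 ± 0.22, edgeR adjusted p = 0.000208), and reads of its near-identical copy NPY4R2 may be counted with it. NPFFR2 (chr4:72031804-72148067, plus strand), a receptor for neuropeptide FF, had 0, 0 and 0 counts in T47D-TR against 34, 52 and 57 counts in T47D. It was detected in every T47D library and in no T47D-TR library, at least 46.8-fold lower against a floor of 3 counts over the T47D-TR group (edgeR adjusted p = 3.21e-07). OXTR, the oxytocin receptor, was not called, at 4.85 ± 0.553 CPM in T47D-TR and 4.81 ± 0.635 CPM in T47D.

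GPER1 (chr7:1082208-1093815, plus strand), a membrane receptor that binds oestrogen and at which 4-hydroxytamoxifen has been described as an agonist, was lower in T47D-TR. It had 1.87, 1.89 and 2.19 CPM in T47D-TR against 5.60, 5.37 and 5.36 CPM in T47D. The libraries of each group lay close together, and the level in T47D-TR was 0.364 times that in T47D (log2 -1.46 ± 0.07, edgeR adjusted p = 1.63e-06).

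Adhesion receptors, which carry long extracellular parts that bind cells and matrix, split evenly, with 6 of 14 higher, 6 lower and 2 not called. The shares higher and lower were 42.9% each, against 32.5% and 30.7% of all tested genes. Their median log2 fold change was -0.03. ADGRF4 (chr6:47685864-47722021, plus strand) showed the largest rise of the 71 tested receptors of the name rule. It had 125, 131 and 201 counts in T47D-TR against 1, 1 and 10 counts in T47D, or 6.48, 6.68 and 11.9 CPM against 0.0538, 0.0511 and 0.536 CPM. The fold change was 38.1 (log2 5.25 ± 0.73, edgeR adjusted p = 0.000155), and 140-fold (log2 7.13) without T47D replicate 3, which held 10 of the 12 parental counts. ADGRG1, also named GPR56, had 88.9, 81.4 and 98.1 CPM in T47D-TR against 40.1, 39.6 and 33.6 CPM in T47D (log2 1.24 ± 0.11, edgeR adjusted p = 1.58e-08). ADGRA2, a co-receptor for Wnt ligands in brain vessels, had 14.8, 15.3 and 15.5 CPM in T47D-TR against 5.60, 6.44 and 5.30 CPM in T47D (log2 1.39 ± 0.08, edgeR adjusted p = 3.16e-08). The opposite-strand gene BRF2 shares 23.1% of ADGRA2's exon bases and was also higher, at 9.18 CPM in T47D-TR and 6.89 CPM in T47D.

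Members of the EGF-type adhesion group moved in opposite directions. ADGRE1, the human counterpart of the mouse macrophage marker F4/80, had 1, 0 and 0 counts in T47D-TR against 16, 15 and 31 counts in T47D. The ratio of T47D-TR to T47D was 0.0164, with a 95% counting interval of 0.000409 to 0.0949 (edgeR adjusted p = 1.84e-05). ADGRE2 was at 47.8 ± 1.09 CPM in T47D-TR and 27.6 ± 2.02 CPM in T47D (log2 0.79 ± 0.06, edgeR adjusted p = 1.08e-07). ADGRE5, which encodes CD97, a binding partner of the complement regulator CD55, was at 106, 116 and 102 CPM in T47D-TR and 82.4, 83.8 and 81.3 CPM in T47D (log2 0.39 ± 0.06, edgeR adjusted p = 1.79e-05). ADGRE2 and ADGRE5 share near-identical sequence, so reads may be split between them. CD55 was itself higher, at 443 CPM in T47D-TR and 180 CPM in T47D (log2 1.30).

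ADGRG2, known from the epididymis, fell to 0.674, 0.561 and 0.237 CPM in T47D-TR, against 1.56, 1.84 and 1.39 CPM in T47D (log2 -1.67 ± 0.38, edgeR adjusted p = 0.000552). ADGRD2 had 3.27, 3.72 and 3.02 CPM in T47D-TR against 10.3, 10.1 and 9.54 CPM in T47D (log2 -1.57 ± 0.09, edgeR adjusted p = 6.77e-08). The groups of both genes did not overlap. Of the abundant adhesion receptors, ADGRG6 had 44.9, 49.1 and 37.9 CPM in T47D-TR against 59.5, 58.1 and 58.3 CPM in T47D (log2 -0.41 ± 0.11, edgeR adjusted p = 0.000316). ADGRA3 had 98.2, 101 and 102 CPM in T47D-TR against 115, 113 and 116 CPM in T47D (log2 -0.19 ± 0.02, edgeR adjusted p = 0.0016). ADGRL1, a latrophilin, was not called, at 99.8, 105 and 107 CPM in T47D-TR and 100, 102 and 89.1 CPM in T47D. Nor was ADGRF3, at 3.60 ± 1.195 CPM in T47D-TR and 4.02 ± 0.760 CPM in T47D. The brain-enriched receptors ADGRB1 and ADGRB2 moved in opposite directions. ADGRB2 rose to 17.1 ± 2.62 CPM in T47D-TR, against 11.3 ± 0.188 CPM in T47D (edgeR adjusted p = 0.000243), and ADGRB1 fell to 0.520 ± 0.0992 CPM in T47D-TR, against 0.988 ± 0.129 CPM in T47D (edgeR adjusted p = 0.0251, but 0.114 with DESeq2).

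**Figure D3:**
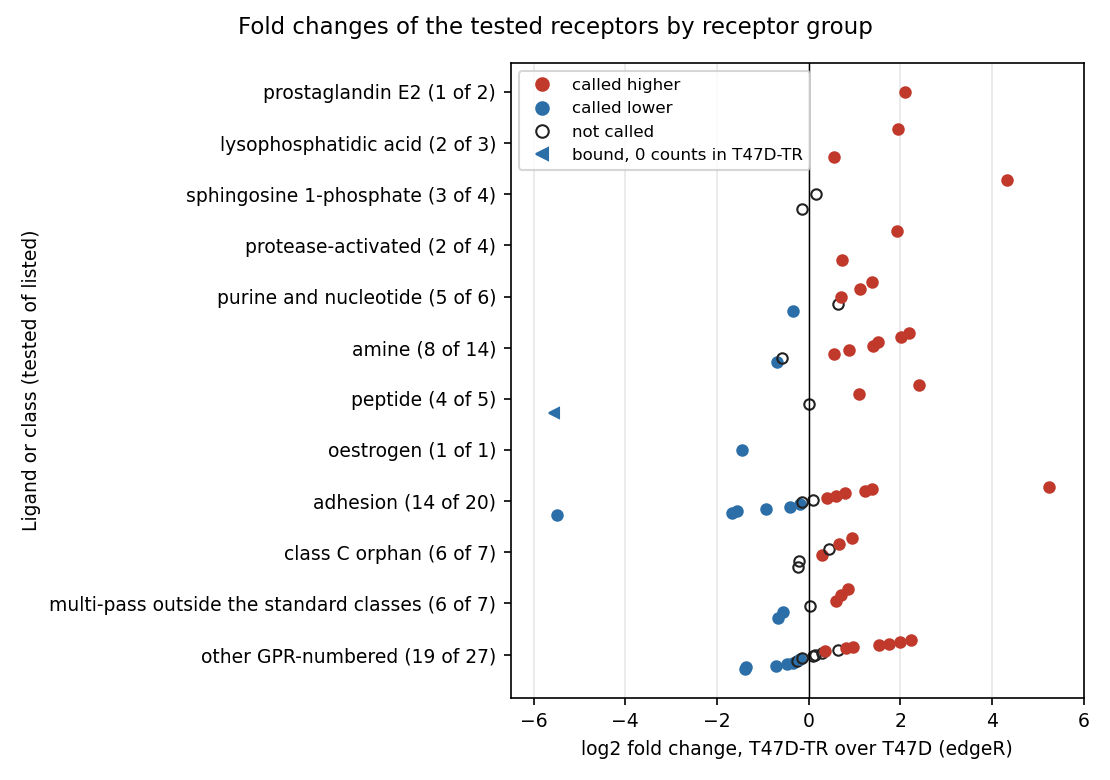
Log2 fold change of T47D-TR over T47D (edgeR, 3 libraries per group) for each of the 71 tested receptors, 1 row per ligand or class; filled points are called and open points are not. Amine and lipid rows lie mostly right of 0, the adhesion row spans both sides, and NPFFR2 is drawn as a triangle at its bound because it has 0 counts in T47D-TR.

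Class C orphan receptors, which have no settled ligand, rose in 3 of 6 tested members and fell in 0. GPRC5A, a retinoic acid-induced receptor of epithelia, had 426, 452 and 291 CPM in T47D-TR against 207, 199 and 203 CPM in T47D. T47D-TR replicate 3 was well below the other T47D-TR libraries and still above every T47D library (log2 0.94 ± 0.20, edgeR adjusted p = 0.0108). Per kilobase of exon GPRC5A was at 46.1 CPM in T47D-TR and 24.1 CPM in T47D, the second highest receptor in both. GPR158 was at 5.84 ± 1.03 CPM in T47D-TR and 3.69 ± 0.448 CPM in T47D, and GPRC5C at 14.01 ± 1.11 CPM in T47D-TR and 11.5 ± 0.646 CPM in T47D. GPRC5C was not called by DESeq2 (adjusted p = 0.0542). GPRC5B and GPRC5D were not called, at log2 fold changes of -0.23 and 0.44.

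Of the multi-pass proteins outside the standard classes, 3 of 6 tested were higher and 2 lower. GPR107, a protein of the Golgi and endosome traffic, had 161, 156 and 154 CPM in T47D-TR against 105, 105 and 104 CPM in T47D (log2 0.59 ± 0.02, edgeR adjusted p = 2.1e-08). Its relative GPR108 was at 53.5 ± 4.38 CPM in T47D-TR and 33.0 ± 1.71 CPM in T47D (log2 0.70 ± 0.08, edgeR adjusted p = 6.92e-07). GPR180 had 35.6, 36.5 and 35.6 CPM in T47D-TR against 56.9, 57.2 and 56.9 CPM in T47D, with a narrow spread in both groups (log2 -0.67 ± 0.01, edgeR adjusted p = 8.04e-08). GPR155 was at 2.63 ± 0.204 CPM in T47D-TR and 1.44 ± 0.188 CPM in T47D. GPR157 was at 2.41 ± 0.151 CPM in T47D-TR and 3.56 ± 0.297 CPM in T47D, which DESeq2 did not call (adjusted p = 0.0521). GPR137 was not called, at 23.6 ± 0.142 CPM in T47D-TR and 23.0 ± 1.00 CPM in T47D.

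The other GPR-numbered receptors, 19 of them tested, were called higher in 7 cases (36.8%) and lower in 6 (31.6%). These shares were near the 32.5% and 30.7% of all tested genes. GPR3, which signals through Gs without an added ligand, had 5.55, 7.24 and 3.91 CPM in T47D-TR against 1.56, 1.02 and 0.965 CPM in T47D (log2 2.24 ± 0.32, edgeR adjusted p = 3.44e-06). GPR173, an orphan of a family conserved in brain, had 5.70, 5.15 and 7.17 CPM in T47D-TR against 1.51, 1.74 and 1.23 CPM in T47D (log2 1.99 ± 0.19, edgeR adjusted p = 4.44e-07). GPR4, a proton sensor known from endothelium, had 33, 27 and 46 counts in T47D-TR against 14, 5 and 13 counts in T47D (log2 1.75 ± 0.49, edgeR adjusted p = 0.000873). The T47D-TR libraries lay above all T47D libraries for these genes. Of the endothelial markers, PECAM1 moved the same way, at 27.3 CPM in T47D-TR and 0.669 CPM in T47D. VWF had 5 counts in T47D-TR and 3 in T47D, and TEK had 9 and 8. CDH5, KDR, CLDN5 and ERG were not in the count table. GPR182, a receptor also known from endothelium, was lower. GPR153, an orphan, had 9.90, 10.7 and 9.71 CPM in T47D-TR against 2.85, 3.99 and 3.59 CPM in T47D (log2 1.54 ± 0.14, edgeR adjusted p = 1.77e-07).

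Rises under 2-fold in this group included those of GPR39, a zinc sensor, and of GPR161, a ciliary receptor of the Hedgehog pathway, at 7.06 ± 0.762 CPM in T47D-TR and 5.55 ± 0.250 CPM in T47D. GPR161 was not called with DESeq2 (adjusted p = 0.0966). GPR39 was at 16.1 ± 0.285 CPM in T47D-TR and 9.12 ± 0.159 CPM in T47D. The opposite-strand gene LYPD1 covers 34.8% of its exon bases and moved by the same log2 amount of 0.82, at 12.9 CPM in T47D-TR and 7.32 CPM in T47D, and with the strand setting of the counting not given the 2 cannot be told apart. The falls of at least 2-fold were in GPR19 and GPR63, both orphans with few counts. GPR19 had 5, 5 and 7 counts in T47D-TR against 19, 12 and 15 counts in T47D (log2 -1.39 ± 0.26, edgeR adjusted p = 0.00786), and GPR63 had 8, 6 and 3 counts in T47D-TR against 16, 15 and 14 counts in T47D (log2 -1.36 ± 0.26, edgeR adjusted p = 0.00802). GPR84, a receptor for medium-chain fatty acids best known from myeloid cells, had 111, 106 and 116 CPM in T47D-TR against 128, 119 and 130 CPM in T47D (log2 -0.18 ± 0.05, edgeR adjusted p = 0.00716). Per kilobase of exon it was the highest receptor of all in both groups, at 54.3 CPM in T47D-TR and 61.4 CPM in T47D. GPR135 was at 20.8 ± 0.435 CPM in T47D-TR and 28.9 ± 0.822 CPM in T47D (log2 -0.47 ± 0.03, edgeR adjusted p = 2.83e-05). GPR182, a chemokine scavenger of endothelium, was at 1.91 ± 0.337 CPM in T47D-TR and 3.11 ± 0.694 CPM in T47D, and GPR75 at 5.55 ± 0.317 CPM in T47D-TR and 7.07 ± 0.570 CPM in T47D. These 2 calls had edgeR adjusted p of 0.0126 and 0.0265, and leaving out T47D-TR replicate 2 ended both, at 0.0632 and 0.081. GPR75 shares exon bases with the readthrough gene GPR75-ASB3, which was higher, at 10.35 CPM in T47D-TR and 7.27 CPM in T47D. GPR17, GPR20, GPR37, GPR146, GPR160 and GPR176 were not called, at log2 fold changes of -0.26 to 0.64.

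The 30 genes below the filter had at most 50 counts over the 6 libraries. Tested without a filter, where 51.6% of all 20503 genes were called, 6 of them were higher, 4 lower and 20 neither. ADGRG3 had 27 counts in T47D-TR and 0 in T47D, at least 9.16-fold higher against a floor of 3 counts over the T47D group (edgeR adjusted p = 0.000282). CHRM1, a Gq-coupled muscarinic receptor, had 3 counts in T47D-TR and 47 in T47D, a ratio of 0.0650 with a 95% counting interval of 0.0129 to 0.202 (edgeR adjusted p = 0.000172), the opposite direction to CHRM4. The other 5 called higher were GPR78, S1PR1, ADGRG5, GPR143 and the ion channel HTR3A, with 15 to 33 counts in T47D-TR and 1 to 11 in T47D. The other 3 called lower were ADRA2B, GPR1 and ADGRL3, with 0 to 8 counts in T47D-TR and 9 to 26 in T47D. Those not called, with at least 10 counts in all, included PTGER2, LPAR6, F2RL2, F2RL3, ADORA2A, HTR2B, CHRM3, DRD4, ADRA1D, ADGRL4, ADGRV1, ADGRD1, GPR179, GPR18, GPR35, GPR61, GPR62, GPR83 and GPR162.

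Genes downstream of the receptors were counted in the same way, beside the 32.5% of all tested genes called higher and the 30.7% called lower. Of 24 tested G protein subunits 9 were higher (37.5%) and 8 lower (33.3%), shares near that background, with a median log2 fold change of -0.01. GNG4 was at 25.1 CPM in T47D-TR and 5.25 CPM in T47D (log2 2.26), and GNG11 rose by 1.12 on the log2 scale, while GNB4 fell to 29.2 CPM in T47D-TR, against 101 CPM in T47D (log2 -1.79), and GNG13 was at log2 -2.44. Of 22 RGS proteins, receptor kinases and arrestins 6 were higher (27.3%) and 5 lower (22.7%), with a median of 0.05, with RGS14 and RGS5 at log2 0.70 and 0.65 and RGS16 and the receptor kinase ADRBK2 at log2 -1.99 and -0.62. In the cyclic AMP branch 9 of 24 were higher (37.5%) and 9 lower (37.5%), with a median of -0.07. Its largest changes were in phosphodiesterases, which break cyclic AMP down, and in a regulatory subunit of protein kinase A. PDE4C and PDE4D were higher, at log2 1.97 and 1.06, and PDE3B and PRKAR2B were lower, at log2 -4.25 and -3.04. In the list of phospholipase C and related effectors 14 of 27 were higher (51.9%) and 7 lower (25.9%), with a median of 0.32. The protein kinase C gene PRKCH and the diacylglycerol kinase DGKA were higher, at log2 4.84 and 1.62, and PLCB2 and PRKCQ were lower, at log2 -1.64 and -0.59. The calls of RGS5 and PRKCQ were both at an edgeR adjusted p of 0.0475, and they were lost in several alternatives, at 0.21 for RGS5 without T47D replicate 3 and 0.142 for PRKCQ without T47D-TR replicate 3.

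**Figure D4:**
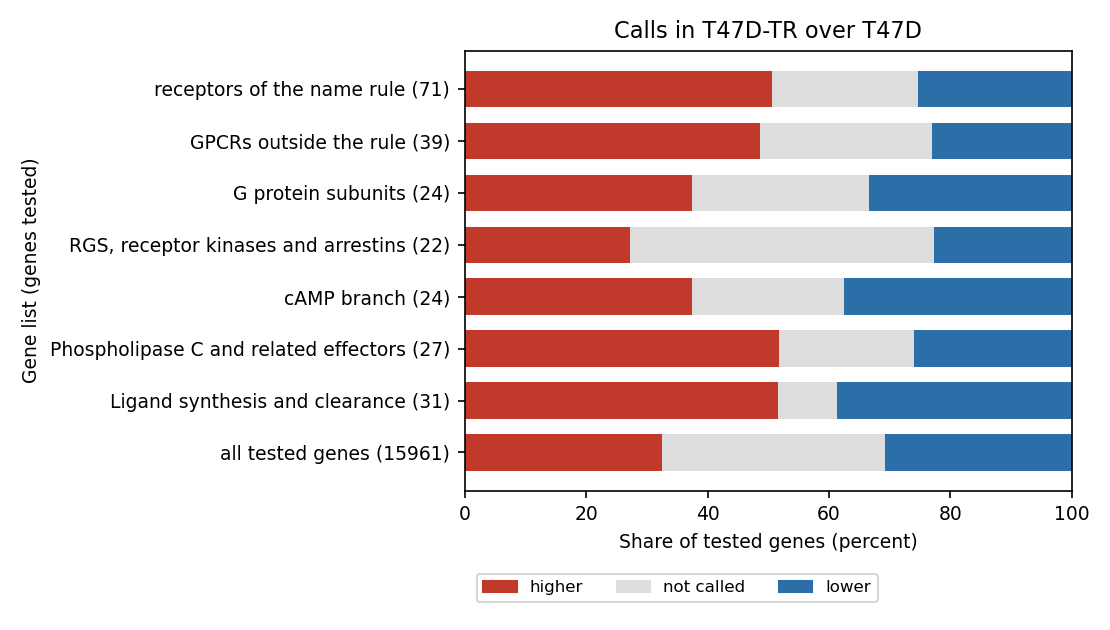
Share of tested genes called higher and lower in T47D-TR (percent, edgeR adjusted p under 0.05) for the receptors, for each list of pathway genes and for all 15961 tested genes, with the number of genes in each list. Receptors are at 50.7% higher and 25.4% lower and all tested genes at 32.5% and 30.7%.

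Genes that make, carry or clear the receptors' ligands were higher in 16 of 31 cases (51.6%) and lower in 12 (38.7%), against 32.5% and 30.7% of all tested genes, with a median log2 fold change of 0.27. MAOB, which oxidises amines, was at 22.9 CPM in T47D-TR and 0.583 CPM in T47D (log2 5.28), and its relative MAOA was at 0.298 CPM in T47D-TR and 1.76 CPM in T47D (log2 -2.51). SLCO2A1, the prostaglandin uptake transporter, was at 27.8 CPM in T47D-TR and 0.938 CPM in T47D (log2 4.89), and EDN2, an endothelin, was at log2 -2.93. Further genes of prostaglandin, adenosine and sphingosine handling are named after their values were seen. HPGD, which inactivates prostaglandin E2, was at 8.88 CPM in T47D-TR and 0.568 CPM in T47D, and PTGES, which makes it, at 258 CPM in T47D-TR and 164 CPM in T47D. The listed genes PTGES2, PTGES3 and ABCC4 were lower, at log2 -0.18, -0.44 and -0.69. NT5E, which forms adenosine, was at 101 CPM in T47D-TR and 32.6 CPM in T47D (log2 1.64), and ENTPD1, which acts before it on ATP, was at 28.1 CPM in T47D-TR and 82.1 CPM in T47D (log2 -1.55). The related gene ENTPD2 was higher, at 4.22 CPM in T47D-TR and 0.579 CPM in T47D (log2 2.85). SPHK1, which makes sphingosine 1-phosphate, fell to 9.30 CPM in T47D-TR, against 18.2 CPM in T47D.

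Receptors outside the name rule gave a like picture, with 19 of 39 tested higher (48.7%), 9 lower (23.1%) and a median log2 fold change of 0.43. That list too was chosen with earlier results of these data known. LGR6, a receptor for R-spondins, had 149 counts in T47D-TR and 3 in T47D, a ratio of 50.6 with a 95% counting interval of 16.97 to 248. FZD10, a Wnt receptor, had 113 counts in T47D-TR and 2 in T47D, a ratio of 57.5 with an interval of 15.6 to 481. SUCNR1, the succinate receptor, was at 0.155 CPM in T47D-TR and 4.26 CPM in T47D (log2 -4.67). SSTR5, a somatostatin receptor, was lower, at 0.638 CPM in T47D-TR and 1.99 CPM in T47D (log2 -1.62). The more abundant somatostatin receptor SSTR1 was higher, at 121 CPM in T47D-TR and 19.4 CPM in T47D (log2 2.64). Leaving out 1 library moved some of these pathway values by over 1.5 times: the log2 fold change was 6.35 for LGR6 without T47D replicate 3, -5.59 for SUCNR1, -4.87 for PDE3B and -3.03 for GNG13 without T47D-TR replicate 1, and -3.14 for MAOA and -3.81 for EDN2 without T47D-TR replicate 2.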

How the data were processed

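Per the labels' protocols, TRIzol RNA (1 µg per library) went through poly(A) selection and a directional NEBNext kit. The submitters' processing notes name HISAT2 2.1.0, GRCh38 and DESeq. The sources used here give no counting tool, strand setting, annotation or DESeq version. The authors deposited raw read counts for each gene in each library. Beside them the authors deposited a normalized signal per group, a linear ratio of these, its log2 fold change, a p-value and a false discovery rate.

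The counts were analysed with edgeR 4.0.16 in R 4.3.3 on the whole table: TMM scaling, filterByExpr (minimum count 10, minimum total 15), glmQLFit and glmQLFTest, T47D-TR over T47D, Benjamini-Hochberg over all 15961 tested genes, called under 0.05, 2-sided. CPM were counts over TMM-adjusted library sizes, shown per library or as mean ± SD (n = 3). The SE of a log2 fold change came from log2 CPM with a prior count of 2 and is too small at low counts. A gene at 0 in a group was compared with a floor of 3 counts over that group, and 1 to 3 counts gave a ratio with an exact 95% interval; both cover counting error only. In a single library 3 counts are 0.153 to 0.178 CPM. Positions and exon overlaps are from GENCODE on GRCh38. The procedure was tested on simulated data.

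Full values are given for receptors called at least 2-fold with groups that do not overlap and for the 10 of highest mean CPM, and from each pathway list for up to 2 called genes in each direction. The receptors, lists and rules were chosen with earlier results of these data known. Some receptors in the counts are not reported here by name. The labels state no pairing by replicate number, and the main test used none. Alternatives were DESeq2 1.42.0, other scalings, voom of limma 3.58.1, other filters, a stricter threshold, a replicate block and leaving out each library.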

Additional observations from a re-analysis of the deposited data

How the results depend on the processing

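Of the 54 called receptors, 44 stayed called in every alternative that tested them, and 10 lost the call in some, among them HTR1D, GPR75, P2RY11, ADGRB1, GPR161, GPR182, GPR157, GPRC5C and, at an adjusted p under 0.01 alone, GPRC5A. Receptors called higher and lower numbered 33 and 14 with DESeq2, 36 and 18 with its size factors in edgeR, 35 and 18 with plain library sizes, 35 and 18 with voom, 32 and 19 with quantile scaling, 42 and 22 without a filter, 32 and 14 where a mean CPM of 1 was required, and 31 and 13 at the threshold of 0.01. Leaving out each library gave 32 to 37 higher and 15 to 19 lower. With the replicate number as a block the calls were 36 and 18. Same-numbered libraries did not deviate together (r = -0.01, -0.02 and -0.01). With 3 libraries per group this cannot show whether they were prepared together. Under quantile scaling 8 RGS-list genes were lower, against 5, and 14 receptors outside the name rule, against 9; the cause was not tested. Signs turned only in 7 receptors that were not called. With a library left out, the log2 fold change ranged from -0.28 to 0.01 for GPR37, from -0.45 to 0.03 for ADGRF3, from -0.01 to 0.26 for GPR176 and from -0.09 to 0.09 for OXTR. Under quantile scaling it was -0.06 for GPR176, -0.13 for GPR160, -0.06 for GPR137, -0.04 for S1PR2 and -0.22 for OXTR, and with plain library sizes -0.03 for OXTR. GPR146 and GPRC5B gained a call in some settings. Depth limits receptors with few counts: without T47D-TR replicate 1, which held the 1 count of ADGRE1, that group was at 0 and the fitted log2 fold change was -7.36, which is no bound.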
